A study of Mus musculus with 35 samples.

Results

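Ribosome footprints were compared between Ogfod1-targeted and control leukemia cells taken from mice that had received a diet free of branched-chain amino acids together with chemotherapy. The members were the protein-coding genes of the annotation whose footprint counts were high enough to test. Of 21974 such genes, 11481 passed the filter on low counts, among 18290 genes of every type that were tested and 55487 listed. The comparison set 2 libraries of cells with a guide RNA against Ogfod1 (sgOgfod1, replicates 4 and 5) against 4 libraries of cells with a scrambled guide (sgScramble, replicates 1, 2, 3 and 5).

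All groups shared 1 model. MLL-AF9 acute myeloid leukemia cells, which carry a fusion of the genes Kmt2a and Mllt3 and express GFP, had been collected from a single leukemic mouse and grown in culture. Male recipients aged 8 to 10 weeks received these cells by vein, and their strain was not given in the labels. The treated groups were fed the diet without leucine, isoleucine and valine and received 5+3, which is cytarabine at 100 mg/kg daily for 5 days with doxorubicin at 3 mg/kg daily for the first 3 days. The vehicle groups, 3 sgScramble and 3 sgOgfod1 footprint libraries, had standard amino acids (AA) and phosphate-buffered saline. Diet and drugs changed together, so their effects cannot be told apart, and the labels name neither the number of guides nor how the guided cells were selected. Cells were taken when the response to chemotherapy was greatest, as GFP+ cells sorted from marrow, and each library came from 1 mouse. RNA from the same lysates was sequenced for these mice and for further mice without footprints, giving 7 treated sgScramble and 6 treated sgOgfod1 RNA libraries.

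Ogfod1 is an oxygen- and oxoglutarate-dependent enzyme that hydroxylates a proline of the small ribosomal subunit protein uS12, encoded by Rps23. That residue lies in the decoding centre, where the ribosome reads the codon. Footprints are the stretches of mRNA that ribosomes shield from nuclease, so their number per gene reflects how much mRNA there is and how many ribosomes sit on it. Cells short of amino acids hold uncharged tRNAs, which activate the kinase Gcn2 and, through the factor ATF4, genes for amino acid uptake, synthesis and tRNA charging. Cytarabine is a nucleoside that halts DNA synthesis, and doxorubicin traps topoisomerase II on DNA.

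The 6 treated footprint libraries held between 7644456 and 10100483 counts, and all 12 between 5705585 and 14642692. No pair of treated libraries of the same genotype agreed within sampling noise. Chi-square per degree of freedom was 6.33 to 14.7 for sgScramble pairs and 19.2 for the only sgOgfod1 pair. Small nuclear RNA took 5.12% to 9.03% of counts in treated sgScramble libraries and 3.67% and 1.40% in treated sgOgfod1 libraries. Pseudogenes took 23.4% to 27.2% and 28% to 31.2%, respectively. Leukemia genes were read in every treated library, among them Hoxa9 at 16.5 to 22.4 CPM (counts scaled to library size) in sgScramble and 16.3 and 21.7 in sgOgfod1, and Myb at 189 to 206 and 183 and 183. The myeloid enzyme gene Mpo gave 427 to 964 CPM in sgScramble and 698 and 273 in sgOgfod1. Mef2c gave 25.2 to 34.6 CPM in sgScramble, 23.3 in sgOgfod1 replicate 4 and 1.65 in replicate 5.

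Ogfod1 itself, on chromosome 8 at 94037198 to 94067921 of the build GRCm38, had the smallest adjusted p among the genes named by rule. Its footprints stood at 14.4, 15.6, 12.4 and 17.5 CPM in the sgScramble libraries 1, 2, 3 and 5, and at 2.91 and 1.44 CPM in the sgOgfod1 libraries 4 and 5. The groups did not overlap. The difference was −2.77 ± 0.27 (SE, log2, sgOgfod1 minus sgScramble; edgeR quasi-likelihood test, adjusted p = 8.99e-05). Under vehicle it was −2.67 ± 0.24 (adjusted p = 2.68e-05 by the same test). Ogfod1 mRNA, which was measured in all treated mice with RNA, was lower by less, at −1.25 ± 0.22 (edgeR, adjusted p = 0.00608), with 3.75 to 13.0 CPM in sgOgfod1 and 12.3 to 31.6 in sgScramble. Rps23, which encodes the substrate of the enzyme, gave 361, 332, 330 and 330 CPM against 339 and 415. Its difference was 0.16 ± 0.11 (adjusted p = 0.523), which did not pass the test. Of the 11 genes for Ogfod1 and other oxygenases of the translation machinery, Ogfod1 alone was called.

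Over all members, 78 genes (0.679%) were higher and 123 (1.07%) lower in treated sgOgfod1 cells at an adjusted p under 0.05. Without adjustment, 965 genes (8.41%) were higher and 1094 (9.53%) lower at p under 0.05, and the median difference over all members was −0.0024 on the log2 scale. Of the genes called lower, 65 changed by more than 1 log2 unit, against 13 of those called higher. Both sgOgfod1 libraries lay outside the range of the 4 sgScramble libraries for all 201 called genes, but this also held for 1400 genes above (12.2%) and 1502 below (13.1%). With 2 libraries against 4, an exact permutation test of a single gene cannot go below a two-sided p of 0.133, so the calls rest on the spread that the fit shares over all 12 libraries.

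**Figure D1:**
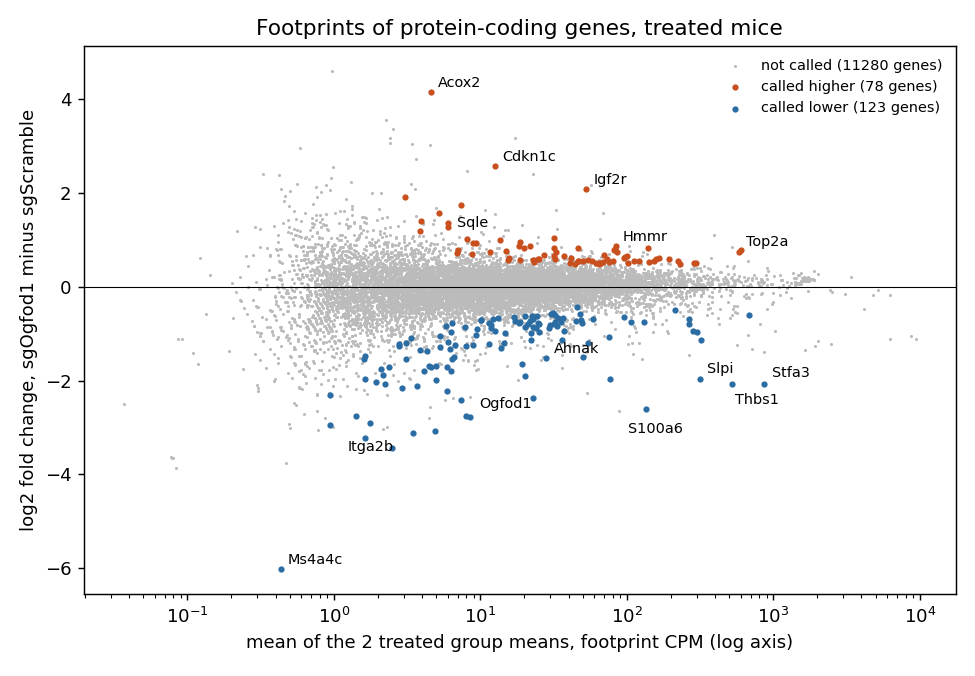
Footprint log2 fold change of treated sgOgfod1 over treated sgScramble (vertical) against the mean of the group means in CPM (horizontal, log axis) for the 11481 protein-coding genes tested. Grey points were not called, orange points are the 78 genes called higher and blue points the 123 called lower. Ms4a4c, at −6.03, had no counts in either sgOgfod1 library, so its fold depends on the prior count of the fit.

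The calls depended on which libraries entered. The sgOgfod1 footprint libraries carry the numbers 22 and 24, while sgScramble replicates 1 and 2 carry 11 and 12 and replicates 3 and 5 carry 17 and 19. With a term for library numbers from 17 up in the edgeR fit, 0 genes were higher and 2 lower at the same threshold, namely Ogfod1 and Slpi. With only the 4 treated libraries numbered 17 and above, Hmmr was higher and Ogfod1, Slpi, Acvrl1, Cd84 and Prr13 were lower. These genes lie partly outside the naming rule and are given because so few were left, a choice made after their values were seen. In that last fit the medians of the 2 called sets were 0.643 and −1.07, near the 0.645 and −1.09 of the full comparison. These sets were chosen in the full comparison, which holds the same 4 libraries, so the nearness follows from the choice and is no separate check. Leaving out 1 library moved both counts by over 1.5 times for sgOgfod1 replicate 4 (41 higher and 40 lower, 34 of them shared with the full comparison), sgOgfod1 replicate 5 (211 and 195), sgScramble replicate 2 (36 and 54), sgScramble replicate 3 (22 and 59), sgScramble replicate 5 (120 and 185) and vehicle sgOgfod1 replicate 4 (144 and 234). It moved the higher count alone for treated sgScramble replicate 1 (37) and vehicle sgScramble replicates 2, 3 and 5 (48, 49 and 49). DESeq2 called 160 higher and 248 lower in place of edgeR, and 192 of the 201 genes were among them.

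The same genotype contrast was read in RNA, from mice with and without a footprint library. Treated RNA libraries numbered 17 and above comprised 5 sgScramble and 3 sgOgfod1 mice, of which 2 and 2 also had footprints. Those below 17 comprised 2 sgScramble mice, both with footprints, and 3 sgOgfod1 mice without, so the ranges are not independent of the footprints. Over the 78 genes called higher in footprints, the median RNA difference was 0.59 from 17 up, with 33 called higher and 1 lower, and −0.0723 below 17, with 5 called higher. Over the 123 genes called lower it was −0.978 from 17 up, with 65 called lower, and −0.105 below 17, with 1 called lower and 2 higher. Among all members with RNA values, 4.22% were called higher and 4.67% lower from 17 up, and 1.02% and 1.34% below. A direct test of the difference between the ranges passed for 6 of the 78 and 13 of the 123 genes, each larger in the direction of the footprints from 17 up, beside 0.642% and 1.19% of all genes tested. What the library numbers stand for is not in the labels, and library number and mouse cannot be told apart in the footprints.

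The genes of mitosis were the list with the most calls. Mitotic genes are switched on late in the cell cycle by protein complexes that recognise the CHR element, TTTGAA, and the CCAAT box, CCAAT, in their promoters. The promoters of 4 of the genes with the smallest p are printed because most promoters of the called mitotic genes hold these letters. Each runs 5′ to 3′ on the strand of the gene, from 250 bases before to 50 after the RefSeq start (GRCm38.p6). Capitals mark TTTGAA and CCAAT, or their reverse complements TTCAAA and ATTGG. The windows are chr11:40733388-40733687 (minus strand) for Hmmr, chr3:135212313-135212612 (plus) for Cenpe, chr11:99024140-99024439 (minus) for Top2a and chr7:122159185-122159484 (plus) for Plk1.

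Hmmr: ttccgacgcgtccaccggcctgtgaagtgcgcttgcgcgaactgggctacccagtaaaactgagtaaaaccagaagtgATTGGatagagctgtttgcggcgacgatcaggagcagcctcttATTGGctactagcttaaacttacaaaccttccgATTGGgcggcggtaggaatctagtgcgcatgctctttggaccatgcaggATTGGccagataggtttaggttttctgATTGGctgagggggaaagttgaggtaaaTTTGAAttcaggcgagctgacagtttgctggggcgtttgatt
Cenpe: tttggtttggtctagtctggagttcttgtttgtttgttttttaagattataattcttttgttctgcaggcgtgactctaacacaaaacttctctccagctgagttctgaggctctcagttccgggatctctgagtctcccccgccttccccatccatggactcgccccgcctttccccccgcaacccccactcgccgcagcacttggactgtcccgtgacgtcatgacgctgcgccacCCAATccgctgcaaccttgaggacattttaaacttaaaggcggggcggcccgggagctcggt
Top2a: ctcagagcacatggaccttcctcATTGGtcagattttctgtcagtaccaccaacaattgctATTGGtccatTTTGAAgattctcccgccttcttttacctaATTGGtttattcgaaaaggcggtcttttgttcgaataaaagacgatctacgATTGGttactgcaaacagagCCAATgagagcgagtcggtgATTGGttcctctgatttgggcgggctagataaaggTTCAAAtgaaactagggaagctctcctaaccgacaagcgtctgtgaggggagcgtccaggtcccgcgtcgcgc
Plk1: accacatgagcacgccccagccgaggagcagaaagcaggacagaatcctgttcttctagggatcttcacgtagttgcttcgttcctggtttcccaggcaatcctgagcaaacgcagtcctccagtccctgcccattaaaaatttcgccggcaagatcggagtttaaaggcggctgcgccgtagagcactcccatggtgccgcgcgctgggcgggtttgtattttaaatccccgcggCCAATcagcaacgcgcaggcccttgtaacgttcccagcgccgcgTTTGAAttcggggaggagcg

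The windows of Hmmr and Plk1 held TTTGAA 1 time and that of Top2a 2 times on either strand, whereas the window of Cenpe held none. CCAAT occurred 5 times in Hmmr, 6 in Top2a and 1 time each in Cenpe and Plk1. The RefSeq table matched 8909 of the 11481 members, with 11325 promoters, of which 12.4% held TTTGAA and 38.6% CCAAT. Of 19 promoters of 18 called mitotic genes, 78.9% held TTTGAA, 78.9% CCAAT and 68.4% both. The shares were 80.9% and 78.7% over 47 promoters of all tested mitotic genes, called or not. Over 74 promoters of all genes called higher, they were 33.8% and 52.7%, and over 130 promoters of genes called lower, 11.5% and 28.5%. The 74 include the 19 of called mitotic genes. Of the 25 with TTTGAA among the 74, 15 were of called mitotic genes, as were 15 of the 39 with CCAAT. A match describes the letters only.

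Of 51 tested genes of G2/M and mitosis, 19 were higher and 0 lower in treated sgOgfod1 footprints. All 51 differences were positive, with a median of 0.478, and 45 had an unadjusted p under 0.05. Hmmr, a spindle-associated protein, gave 56.4, 62.3, 54.8 and 65.2 CPM in sgScramble and 112 and 105 CPM in sgOgfod1. Both sgOgfod1 libraries stood far above the sgScramble range, and the difference was 0.86 ± 0.11 (adjusted p = 0.00302, edgeR). Cenpe, a kinesin of the kinetochore, gave 57.6, 60.7, 58.1 and 65.2 against 107 and 105 CPM, a difference of 0.81. Top2a, the topoisomerase that doxorubicin acts on, gave 446, 441, 385 and 464 against 790 and 665 CPM, a difference of 0.75 ± 0.12 (adjusted p = 0.00863, edgeR). In each of these 3 genes the groups did not overlap.

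Plk1, a kinase that drives entry into and passage through mitosis, gave 55.6, 54.2, 47.1 and 56.0 CPM in sgScramble and 90.5 and 81.1 in sgOgfod1, a difference of 0.69. Mki67, the proliferation marker Ki-67, gave 445, 435, 383 and 498 against 730 and 788 CPM, a difference of 0.79. Ccnb1, the cyclin of mitotic entry, gave 86.2, 80.3, 78.8 and 92.8 against 117 and 125 CPM, a difference of 0.51. The other called members included the motor proteins Kif11, Kif14, Kif15, Kif23 and Kif2c, the condensin subunits Smc2 and Ncapg, the kinetochore proteins Cenpf and Nuf2, and the spindle proteins Prc1, Tpx2 and Nusap1, with Bub1b of the spindle checkpoint. Their differences ran from 0.48 in Nusap1 to 0.73 in Cenpf. The list of DNA replication and G1/S genes, which act earlier in the cycle, had 0 calls among 44 tested by edgeR and 1 by DESeq2, with 8 higher and 1 lower at an unadjusted p under 0.05 and a median of 0.066. Its nearest to a call, the DNA methyltransferase gene Dnmt1, had a difference of 0.44 (adjusted p = 0.0805).

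In vehicle footprints the mitotic list had a median genotype difference of 0.0942, with 0 calls by edgeR and 2 by DESeq2. The test of the difference between the treated and vehicle effects called 0 of the 51 genes by edgeR and 1 by DESeq2 (0.0261% of all members by edgeR). An unadjusted p under 0.05 was seen for 27 of them, beside 3.99% of all members with a positive and 5.13% with a negative difference. In RNA over all treated mice the median was 0.329, with 0 of 51 called by edgeR, 5 by DESeq2 and 25 at an unadjusted p under 0.05. From library number 17 up the RNA median was 0.591 with 35 genes called higher, and below 17 it was −0.214 with 0 called. The direct test of that difference passed for 5 of the 51. Cenpe was among them, at 0.99 from 17 up and −0.23 below (adjusted p of the difference 0.0463, edgeR). Against the treated sgScramble mean, the median log2 RNA level of the list was −0.265, −0.288 and −0.291 in sgScramble replicates 4, 6 and 7, without footprints. In sgScramble replicates 1, 2, 3 and 5, with footprints, it was 0.19, 0.201, 0.167 and 0.276. In sgOgfod1 replicates 4 and 5 it was 0.636 and 0.569. In footprints, 3 mitotic genes were called without sgOgfod1 replicate 4, 11 without sgScramble replicate 3, and 28 by DESeq2.

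**Figure D2:**
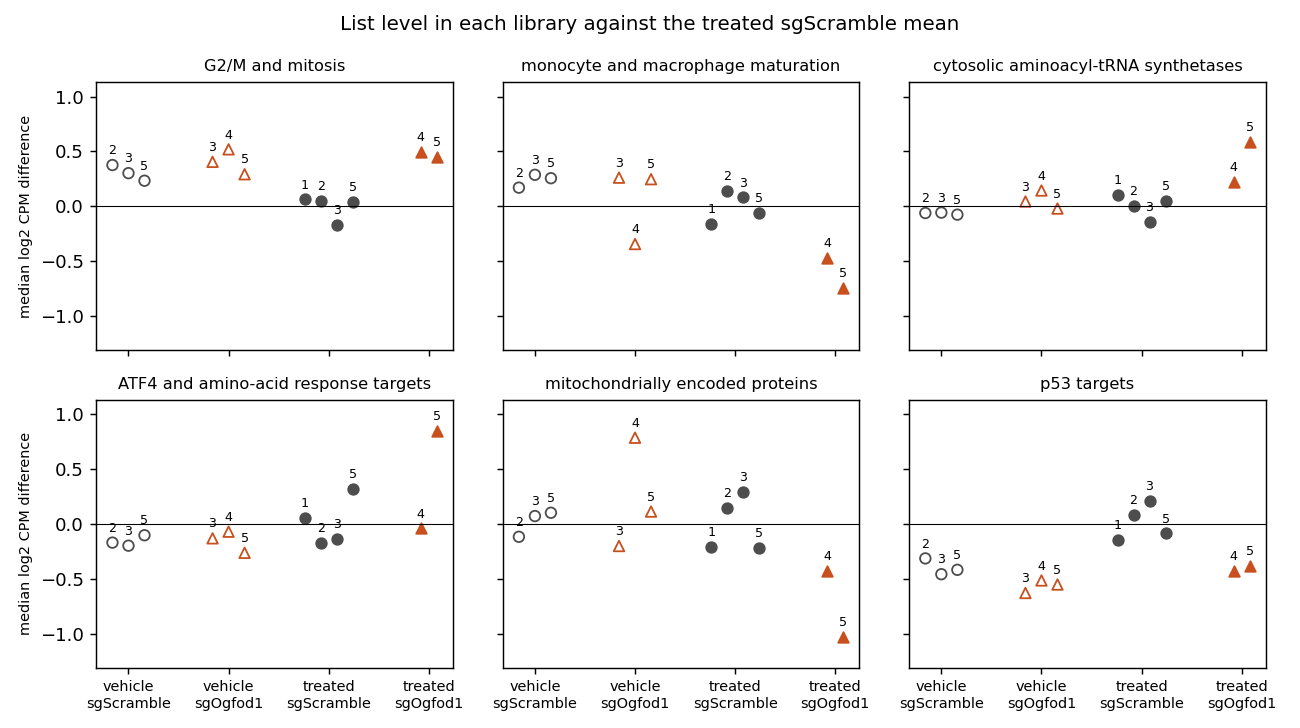
Level of 6 gene lists in each of the 12 footprint libraries, as the median over the list of the log2 CPM difference from the treated sgScramble mean. Circles are sgScramble and triangles sgOgfod1, open for vehicle and filled for treated, with the replicate number beside each point. Both treated sgOgfod1 libraries lie above all treated sgScramble libraries for mitosis and tRNA synthetases and below them for monocyte genes, mitochondrially encoded proteins and p53 targets, while ATF4 targets stand at −0.04 in sgOgfod1 replicate 4 and at 0.85 in replicate 5.

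Among the named lower genes, S100a6, a calcium-binding protein, gave 157, 260, 319 and 199 CPM in sgScramble and 33.7 and 43 in sgOgfod1. Its difference was −2.61 ± 0.36 (adjusted p = 0.0127, edgeR). Thbs1, which encodes the matrix protein thrombospondin, gave 541, 941, 1210 and 678 against 231 and 168 CPM, a difference of −2.08 ± 0.34 (adjusted p = 0.0198, edgeR). Stfa3, a stefin protease inhibitor of granulocytes, gave 967, 1670, 1820 and 1160 against 369 and 298 CPM, a difference of −2.08. Stfa3 has near-identical paralogs, so its counts may hold reads of other stefin genes. Slpi, a secreted inhibitor of neutrophil proteases, is added here after its values were seen, since it passed the fits with library number. It gave 471, 587, 572 and 378 CPM against 119 and 139, a difference of −1.96 ± 0.18 (adjusted p = 8.99e-05, edgeR), and −1.05 ± 0.15 under vehicle. In all 4 genes the highest sgOgfod1 library was below the lowest sgScramble library. Slpi mRNA differed by 0.31 below library number 17 and by −1.48 from 17 up, and the difference between the ranges passed its test (−1.82, adjusted p = 0.0458, edgeR).

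Among surface proteins, Itga2b, the integrin CD41, gave 7.08, 8.22, 6.77 and 2.85 CPM in sgScramble and 0.301 and 1.13 in sgOgfod1. The difference was −3.11 ± 0.58 (adjusted p = 0.0172, edgeR). Cd34, a marker of progenitors, gave 20.0, 15.0, 9.42 and 10.7 against 0.702 and 3.4 CPM, a difference of −2.77. Acvrl1, a receptor of the TGF-beta family, gave 24.7, 44.6, 53.9 and 30.7 against 5.22 and 9.58 CPM, a difference of −2.37. Bst1, an ectoenzyme of myeloid cells, gave 5.01, 8.70, 7.95 and 10.2 against 1.81 and 2.16 CPM, a difference of −1.99. The remaining genes named as lower were the peroxisomal oxidase gene Hao1 (8.93, 10.5, 10.0 and 5.43 against 0.201 and 1.85 CPM, −3.08), Tmem71 (−2.43), the aquaporin gene Aqp9 (−2.22) and Eml5 (−2.12). Several rest on low counts, and Aqp9, Cd34, Hao1 and Itga2b were below 1 CPM in sgOgfod1 replicate 4, and Eml5 in replicate 5.

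The list of monocyte and macrophage maturation had 4 genes lower and 0 higher among 30 tested, with 27 negative differences and a median of −0.627. The called members were the Fc receptor gene Fcgr3 (126, 149, 138 and 127 against 72.9 and 87.7 CPM, −0.75), the endotoxin receptor gene Cd14 (12.7, 17.2, 20.2 and 14.0 against 6.92 and 6.80 CPM, −1.22), Emb (−0.68) and Ms4a4c. The last had 0.653, 1.43, 0.442 and 0.950 CPM in sgScramble and no counts in either sgOgfod1 library. In RNA the list median was −1.66 with 15 genes called lower from library number 17 up, and 0.615 with 1 called higher below 17. The direct test of that difference passed for 7 of 30, Cd14 among them at −2.31 (adjusted p = 0.0458, edgeR). The RNA list level, as median log2 difference from the treated sgScramble mean, split the sgScramble mice. It was 0.306, 0.705 and 1.09 in replicates 4, 6 and 7, which had no footprints. In replicates 1, 2, 3 and 5, with footprints, it was −0.706, −0.315, −0.62 and −0.37. In sgOgfod1 replicates 4 and 5 it was −1.23 and −1.36. The part of the mice without footprints was not tested. In footprints, 0 of the list were called without sgOgfod1 replicate 4, 2 each without sgScramble replicate 2 or 3, 10 without vehicle sgOgfod1 replicate 4, and 9 by DESeq2.

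Markers of other marrow cells were counted in the same libraries, and fewer cells of a type cannot be told apart from less RNA per cell in such bulk samples. Summed CPM over 19 markers of basophils, mast cells and eosinophils was 187 to 384 in sgScramble and 99.0 and 127 in sgOgfod1. Over 20 stromal and endothelial markers it was 186 to 317 and 178 and 105. Neutrophil and granulocyte markers, 30 in all, summed to 27300 to 48600 in sgScramble and to 33100 and 18000 in sgOgfod1, and 20 markers of tissue macrophages to 400 to 643 and 545 and 388. The 16 megakaryocyte markers summed to 127 to 146 and 129 and 115, and the 18 erythroid markers to 78.2 to 111 and 107 and 79.3. B cell sums of 8.22 to 11.0 and 11.5 and 10.5 and T and NK cell sums of 9.53 to 12.3 and 15.2 and 6.59 were low throughout. Vpreb3, Mzb1, Gzmb, Cd8b1, Cma1, Mcpt4 and Rhag had no counts in any treated library. Of these lists 1 gene each was called, Stfa3 for neutrophils (30 tested, median −0.113) and Itga2b for megakaryocytes (8 tested, −0.586). DESeq2 called 5 neutrophil genes and 1 megakaryocyte gene lower, and without adjustment 6 neutrophil genes were lower and 2 higher, and 3 megakaryocyte genes were lower. By edgeR 0 were called among 13 genes of basophils, mast cells and eosinophils (median −1), 12 stromal (−1.13), 15 macrophage (−0.205), 10 erythroid (−0.465), 2 B cell (0.274) and 1 T and NK cell gene (−0.0746). At an unadjusted p under 0.05, 4 basophil, mast cell and eosinophil, 6 stromal and 2 macrophage genes were lower and 1 erythroid gene was higher, and DESeq2 called 3, 3 and 2 lower and 0 erythroid genes. The part of such cells in the lower genes was not tested.

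**Figure D3:**
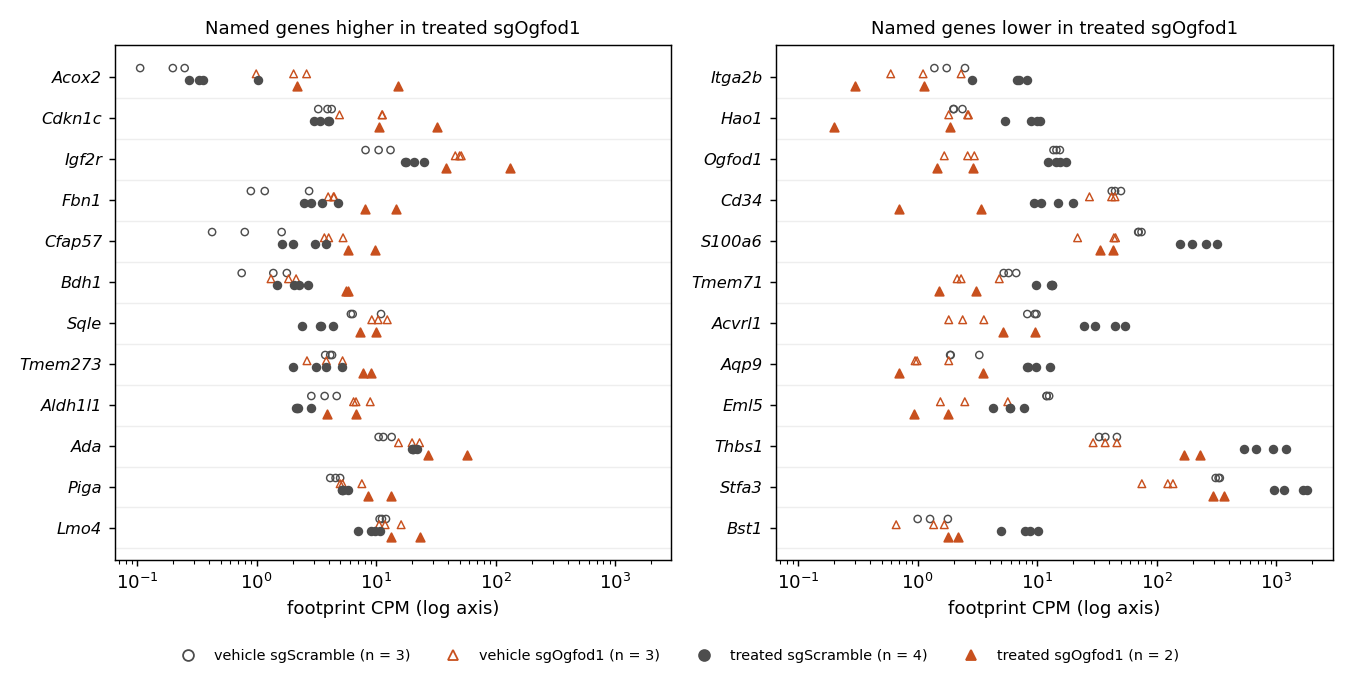
Footprint CPM (log axis) of the 12 genes named as higher and the 12 named as lower, 1 point per library. Circles are sgScramble and triangles sgOgfod1, open for vehicle and filled for treated. In every row the filled triangles lie outside the range of the filled circles, as the naming rule required, and for Acox2, Cdkn1c and Igf2r the 2 triangles are far apart.

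The gene with the greatest rise among the named ones was Acox2, a peroxisomal oxidase of branched fatty acids and bile acid precursors. It gave 0.327, 0.357, 1.03 and 0.271 CPM in sgScramble and 15.2 and 2.16 in sgOgfod1, a difference of 4.16 ± 0.72 (adjusted p = 0.0176, edgeR). Cdkn1c, the cyclin-dependent kinase inhibitor p57, gave 3.05, 3.93, 3.39 and 4.07 against 32.2 and 10.6 CPM, a difference of 2.57 ± 0.43 (adjusted p = 0.0176, edgeR). Igf2r, which carries mannose-phosphate-tagged enzymes to lysosomes and binds insulin-like growth factor, gave 17.4, 20.6, 17.8 and 25.1 against 132 and 38.3 CPM, a difference of 2.08. In these genes replicate 4 was several times as high as replicate 5, and both were above every sgScramble library.

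Sqle, the squalene epoxidase of cholesterol synthesis, gave 2.39, 3.46, 3.39 and 4.34 CPM in sgScramble and 7.32 and 9.89 in sgOgfod1, a difference of 1.35 ± 0.27 (adjusted p = 0.0176, edgeR). Bdh1, of ketone body metabolism, gave 2.07, 2.26, 1.47 and 2.71 against 5.62 and 5.77 CPM, a difference of 1.41. Ada, which deaminates adenosine, gave 20.5, 20.1, 22.2 and 20.2 against 57.7 and 27.2 CPM, a difference of 1.03. Piga, of the synthesis of membrane anchors, gave 5.23, 5.84, 5.15 and 5.29 against 8.52 and 13.3 CPM, a difference of 1.02. The folate enzyme gene Aldh1l1 differed by 1.18. The others were the fibrillin gene Fbn1 (1.74), Cfap57 (1.56), Tmem273 (1.28) and Lmo4, a transcriptional adaptor (9.80, 7.03, 8.98 and 10.7 against 23.4 and 13.2 CPM, 1.00).

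For most genes named as higher or lower, the RNA difference had the same sign in both ranges of library numbers. It passed the threshold in both ranges only for Acox2, Cdkn1c and Lmo4. Acox2 mRNA differed by 4.22 below 17 (adjusted p = 0.00769) and by 3.45 from 17 up (adjusted p = 0.0204), both by edgeR. Cdkn1c differed by 2.25 (adjusted p = 0.0188) and 2.78 (adjusted p = 0.00129), and Lmo4 by 1.20 (adjusted p = 0.00953) and 0.55 (adjusted p = 0.0221), again by edgeR. In all 6 treated sgOgfod1 mice Cdkn1c mRNA, at 22.4 to 101 CPM, was above all 7 treated sgScramble mice, at 4.24 to 17.1. Ogfod1 mRNA differed by −1.20 below 17 and −1.25 from 17 up, and Itga2b by −2.36 and −2.68, with only the values from 17 up past the threshold. Signs were opposite for S100a6, at 0.28 below 17 and −2.71 from 17 up, and for Sqle, at −0.35 and 1.46. They were also opposite for Stfa3 (0.21 and −1.95), Thbs1 (0.01 and −1.87) and Bst1 (1.07 and −2.29). The difference between the ranges passed its test for S100a6 (adjusted p = 0.0458) and Sqle (adjusted p = 0.0463), and missed it for Stfa3 (adjusted p = 0.0603), Thbs1 (adjusted p = 0.201), Cdkn1c (adjusted p = 0.72), Acox2 (adjusted p = 0.802) and Lmo4 (adjusted p = 0.163), all by edgeR.

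Genes that answer amino acid shortage had positive medians, and their values differed between the 2 sgOgfod1 mice. Among 21 cytosolic aminoacyl-tRNA synthetases, which load tRNAs with amino acids, 2 were higher and 0 lower, 20 differences were positive and the median was 0.371. Cars, for cysteine, gave 21.9, 20.6, 20.6 and 28.9 CPM in sgScramble and 32.3 and 49.9 in sgOgfod1, a difference of 0.84 (adjusted p = 0.0176, edgeR). Iars, for isoleucine, gave 78.9, 70.5, 61.7 and 90.6 against 99.7 and 133 CPM, a difference of 0.62 (adjusted p = 0.0451, edgeR). Lars, for leucine, gave 120, 94.6, 78.5 and 98.1 against 130 and 180 CPM, a difference of 0.66 that did not pass (adjusted p = 0.0639, edgeR). With sgOgfod1 replicate 4 left out, 9 synthetases were called, and with replicate 5 left out, 0, as without sgScramble replicate 2 or 3. DESeq2 called 6.

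Of 29 ATF4 and amino acid response targets 1 was higher and 0 lower, with a median of 0.508. The called gene was Slc1a5, a transporter of glutamine and other neutral amino acids, with 53.9, 51.7, 50.8 and 56.4 against 70.4 and 80.1 CPM and a difference of 0.50. The list level was −0.04 in replicate 4 and 0.85 in replicate 5, relative to the treated sgScramble mean on the log2 scale. Mthfd2, a mitochondrial folate enzyme, followed that split, with 25.1, 20.6, 22.7 and 33.6 against 29.2 and 62.9 CPM and a difference that did not pass (0.85, adjusted p = 0.15, edgeR). Of 8 genes for kinases and phosphatases of eIF2, 1 was higher and the median was −0.0781. This was Gcn1l1, the partner that lets Gcn2 sense stalled ribosomes, with 41.0, 36.2, 33.7 and 38.5 against 55.2 and 55.1 CPM and a difference of 0.56 (adjusted p = 0.0324, edgeR). The list of mTORC1 and amino acid sensing had 0 calls by edgeR among 38 tested (median −0.0602; 1 higher and 2 lower unadjusted, 1 lower by DESeq2), and branched-chain amino acid catabolism 0 among 24 (−0.0188; 2 higher unadjusted, 0 by DESeq2).

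The lists of the translation machinery had few calls, beside 1.75% of all members called in either direction by edgeR. At that share few calls would be seen in any lists of this size. Without adjustment, 8.41% of all members were higher and 9.53% lower. Of 85 cytosolic ribosomal protein genes 0 were called by edgeR or DESeq2, with 3 higher and 2 lower at an unadjusted p under 0.05 and a median of 0.0596, and of 78 mitochondrial ribosomal protein genes Mrpl38 alone was called by edgeR (0.71, median of the list 0.0416), whereas DESeq2 called 0 higher and 1 lower. Translation initiation had 0 calls by edgeR among 40, 2 by DESeq2 and 9 higher without adjustment, with a median of 0.15, led by subunits of eIF3 such as Eif3a (454, 457, 435 and 472 against 569 and 634 CPM, 0.40, adjusted p = 0.0639, edgeR). Elongation, termination and rescue factors had 1 call among 23, again Gcn1l1, and a median of 0.135. Ribosome biogenesis had 0 by edgeR or DESeq2 among 48, 12 higher without adjustment, and a median of 0.172.

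All 13 mitochondrially encoded proteins, which are subunits of the respiratory chain and ATP synthase made by the mitochondrion's own ribosomes, had negative differences. By edgeR 0 were called and 7 were lower without adjustment, and DESeq2 called 5 lower. Their summed footprints were 1820, 2280, 2520 and 1650 CPM in sgScramble and 1410 and 994 in sgOgfod1, so the groups did not overlap. The median difference was −0.706, against −0.0894 in RNA and −0.812 in footprints relative to RNA. In RNA 11 of the 13 were tested. Mean RNA over treated sgScramble mice was 1.05 CPM for mt-Atp6 and 1.87 for mt-Co3, beside 2127 for mt-Co1 and 1887 for mt-Cytb. Mean footprints of mt-Atp6 and mt-Co3 in sgScramble were 249 and 230 CPM, so their RNA values lie near the floor. The RNA and ratio medians rest partly on such genes. For mt-Co1, a subunit of cytochrome oxidase, footprints were 497, 595, 623 and 439 against 363 and 260 CPM, a difference of −0.79 that did not pass (adjusted p = 0.079, edgeR). The nuclear genes of oxidative phosphorylation had a median of −0.0493 and 0 calls by edgeR or DESeq2 among 80, with 11 lower without adjustment.

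**Figure D4:**
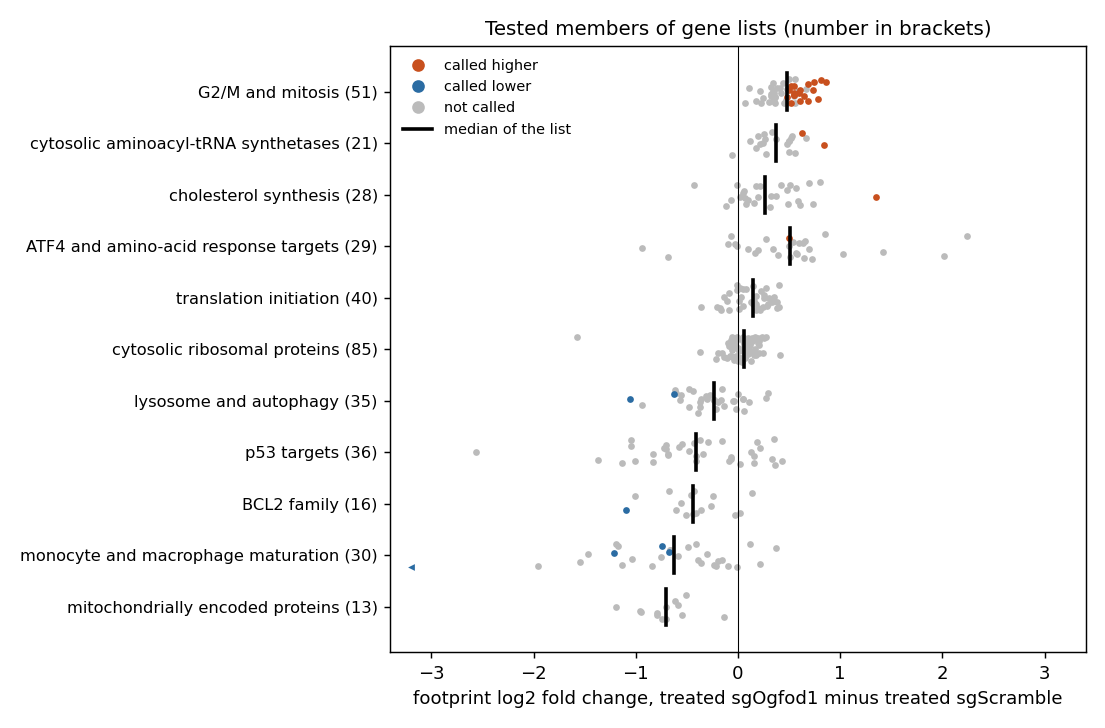
Footprint log2 fold changes of the tested members of 11 gene lists in treated sgOgfod1 over treated sgScramble, 1 point per gene, with the median of each list as a bar. Orange and blue points were called higher and lower. The 51 mitotic genes all lie right of 0 and the 13 mitochondrially encoded genes all lie left of it, and the arrow at the left edge stands for Ms4a4c, beyond the axis.

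Genes of p53, cell death and organelle turnover had negative medians. Beside the counts that follow, 1.07% of all members were called lower by edgeR, and 9.53% were lower without adjustment. Of 36 p53 targets 0 were called by edgeR and 4 lower by DESeq2, 15 were lower without adjustment, and the median was −0.408. Cdkn1a, the cell cycle inhibitor p21, gave 34.8, 43, 55.2 and 33.5 CPM in sgScramble and 17.6 and 20.2 in sgOgfod1, a difference of −1.14 that missed the threshold (adjusted p = 0.056, edgeR). Of 16 BCL2 family genes 1 was lower by edgeR and 0 by DESeq2, 6 were lower without adjustment, and the median was −0.439. This was Bcl2l11, which encodes the death inducer BIM, with 4.03, 4.53, 5.59 and 4.21 against 2.11 and 2.16 CPM and a difference of −1.09 (adjusted p = 0.0451, edgeR). Bbc3, which encodes PUMA, differed by −1 without passing (adjusted p = 0.121, edgeR). Of 35 lysosome and autophagy genes 2 were lower by edgeR and 4 by DESeq2, with a median of −0.233. One was the autophagy kinase gene Ulk1 (7.62, 8.10, 7.95 and 5.02 against 3.11 and 3.81 CPM, −1.05).

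Of 30 genes of the unfolded protein response and heat shock, 2 were lower and 0 higher by edgeR, and the median was 0.154. DESeq2 called 2 higher and 2 lower, and 6 were higher and 3 lower without adjustment. Both genes called by edgeR act in the endoplasmic reticulum: Edem1, which hands misfolded glycoproteins to degradation, gave 35.9, 42.5, 43.9 and 44.6 against 24.4 and 27.9 CPM (−0.67), and Ern1, the stress sensor IRE1, gave 7.73, 8.10, 8.69 and 7.60 against 3.81 and 5.56 CPM (−0.77). Xbp1, whose mRNA IRE1 splices, had a difference of 0.52 that did not pass (adjusted p = 0.0659, edgeR). The proteasome list had 0 calls by edgeR or DESeq2 among 49, with 1 higher and 2 lower without adjustment and a median of −0.0311.

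Of 31 MLL-AF9 targets and stemness genes, 1 was higher and 2 lower by edgeR and 3 and 3 by DESeq2, with a median of −0.0228. Hoxa10, a homeobox factor of the HOXA cluster that the fusion keeps active, gave 13.4, 12.8, 11.2 and 12.8 CPM in sgScramble and 26.3 and 22.8 in sgOgfod1, a difference of 0.97 ± 0.19 (adjusted p = 0.0176, edgeR). Meis1, its usual partner, gave 58.9, 63.8, 50.9 and 55.1 against 40.1 and 36.6 CPM, a difference of −0.58 ± 0.13 (adjusted p = 0.028, edgeR). The other lower gene was Cd34. Of 23 genes that handle cytarabine and doxorubicin, Top2a was higher and Por, a reductase that can act on doxorubicin, was lower (70.1, 90.3, 73.6 and 57.5 against 49.1 and 41.7 CPM, −0.68), with a list median of 0.0982.

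Cholesterol synthesis had 1 call among 28, Sqle, with 24 positive differences and a median of 0.265. By edgeR 0 genes were called in the lists of glycolysis (23 tested, median 0.0545), hypoxia-inducible factor targets (18, −0.0224), interferon-stimulated genes (47, −0.0996), NF-kB and inflammatory genes (20, −0.372), immediate early genes (17, −0.363) and MHC and antigen presentation (18, −0.278). The 20 NF-kB genes were all negative, and Ccl3, a chemokine, came closest, with 1.96, 3.22, 3.83 and 2.17 against 0.100 and 1.03 CPM (−2.28, adjusted p = 0.0515, edgeR). At an unadjusted p under 0.05, 4 of these 20 were lower, as were 7 immediate early and 6 MHC genes, and each of these lists had 1 lower gene by DESeq2. At that level 1 glycolysis gene was higher and 4 lower, and 1 and 2 of the hypoxia list, with 0 by DESeq2. For interferon-stimulated genes, 3 were higher and 2 lower without adjustment and 1 was higher by DESeq2, and Ifitm3 gave 14.3, 21.1, 23 and 24 against 157 and 28.3 CPM, so its difference of 2.18 came mainly from replicate 4 (adjusted p = 0.104, edgeR).

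The genotype effect under treatment was set beside that under vehicle, which called 94 genes higher (0.819%) and 86 lower (0.749%), or 1.57% in either direction. Of the 78 genes higher under treatment, 67 had a positive vehicle difference and 6 were called higher there, which is 7.69% of the treated and 6.38% of the vehicle calls. Of the 123 lower genes, 104 had a negative vehicle difference and 22 were called lower there, or 17.9% of the treated and 25.6% of the vehicle calls. Medians over these sets were 0.266 and −0.338 under vehicle, against 0.645 and −1.09 under treatment. Of the genes named as higher, Igf2r (2.215) and Cfap57 (2.198) were also called higher under vehicle by edgeR. Of those named as lower, Ogfod1, Eml5 (−1.786), Acvrl1 (−1.721) and Stfa3 (−1.542) were also called lower there. The test of the difference itself called 3 genes (0.0261%), 1 with a more positive (0.00871%) and 2 with a more negative effect under treatment (0.0174%). That count moved on leaving out vehicle sgScramble replicate 2 or 5 (1 each), vehicle sgOgfod1 replicate 3 or 4 (1 and 30), treated sgScramble replicate 3 or 5 (1 and 6) and treated sgOgfod1 replicate 4 or 5 (9 and 65). It was 28 by DESeq2, 41 with the replicate number as a block, 160 without the filter on low counts, and 1 with the term for library number or with treated libraries from 17 up.

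Ahnak, a giant scaffold protein of the membrane, had effects of opposite sign under treatment and vehicle, each past the threshold. Under treatment it gave 35.5, 47.5, 51.5 and 33.1 CPM in sgScramble and 16.2 and 12.9 in sgOgfod1. Under vehicle it gave 44, 36.5 and 37.2 in sgScramble and 168, 110 and 117 in sgOgfod1. The effect was thus −1.52 under treatment and 1.75 under vehicle, and the difference was −3.27 ± 0.30 (adjusted p = 0.000734, edgeR). This difference also passed with the term for library number (−3.28, adjusted p = 0.0105, edgeR), with only treated libraries numbered 17 and above (−3.29, adjusted p = 0.0261, edgeR), and on leaving out each library in turn. Hmgb1, a chromatin protein that also acts as a danger signal, gave 158, 210, 158 and 143 against 151 and 170 CPM under treatment. Under vehicle it gave 84.4, 107 and 93.9 against 241, 232 and 184 CPM, and the difference of effects was −1.26 ± 0.21 (adjusted p = 0.0328, edgeR). Tgm1, a transglutaminase, gave 14.8, 12.5, 14.0 and 15.9 against 26.2 and 24.4 CPM under treatment. Under vehicle it gave 11.1, 11.9 and 11.4 against 8.93, 8.43 and 9.14 CPM, so the effects, 0.82 and −0.37, also had opposite signs, the latter without passing (adjusted p = 0.164, edgeR). The difference was 1.20 ± 0.19 (adjusted p = 0.0221, edgeR). The differences of Hmgb1 and Tgm1 missed the threshold with the term for library number (adjusted p = 0.174 and 0.155, edgeR) and with treated libraries from 17 up (adjusted p = 0.0948 for both, edgeR). Both also missed it without vehicle sgScramble replicate 2 (0.156 and 0.0966) or 5 (0.115 and 0.0913), vehicle sgOgfod1 replicate 3 (0.0767 and 0.0664), treated sgScramble replicate 3 (0.0755 and 0.0619) or treated sgOgfod1 replicate 4 (0.0841 and 0.0724), as adjusted p by edgeR. Hmgb1 alone missed it with the replicate block (0.0658) and without treated sgScramble replicate 1 (0.0657), and Tgm1 alone without vehicle sgScramble replicate 3 (0.0605), again as adjusted p by edgeR. Thbs1 showed a large split without passing, at −2.08 under treatment and −0.04 under vehicle (adjusted p of the difference 0.257, edgeR).

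Other genes with the smallest p for that difference did not pass. In the positive direction they were Mogat2 (1.96, adjusted p = 0.124), Prss57 (0.91, adjusted p = 0.129), Kif11 (0.62, adjusted p = 0.238), Reep4 (0.85, adjusted p = 0.238) and Dhdds (0.76, adjusted p = 0.247), by edgeR. In the negative direction they were Sh3glb1 (−1.15, adjusted p = 0.0519), Fcna (−2.76, adjusted p = 0.0519), Slfn5 (−2.68, adjusted p = 0.0519) and Hao1 (−3.28, adjusted p = 0.102), by edgeR. Hmgb1 also has many processed pseudogenes, so its counts may have been split with them.

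Footprints were then set beside mRNA. Over all 13 treated RNA libraries, 7 of them from mice without footprints, 48 of 14335 protein-coding genes (0.335%) were higher and 25 (0.174%) lower. Of the 78 genes with higher footprints, 70 had a positive RNA difference and 3 were called in RNA, and of the 123 with lower footprints, 118 had a negative one and 3 were called. The median RNA differences of these sets were 0.327 and −0.508. Both readouts come from the same lysates in 6 of the mice, so they are not independent. With RNA of only the 12 mice with footprints, 253 genes were called higher and 269 lower.

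Footprints relative to RNA, tested as translation efficiency in the 12 mice with both libraries, changed in 9 protein-coding genes. Of 15791 tested, 6 were higher (0.038%) and 3 lower (0.019%), or 0.057% in all, with 908 (5.75%) and 435 (2.75%) at an unadjusted p under 0.05. Dync1h1, the heavy chain of the dynein motor, had log2 ratios of footprints to RNA of 2.46, 2.49, 2.45 and 2.71 in sgScramble mice and 3.76 and 4.02 in sgOgfod1 mice. Its change was 1.39 ± 0.18 (adjusted p = 0.00664, edgeR). For Tubb2a, a beta-tubulin, the ratios were 3.00, 2.53, 2.70 and 2.53 against 3.86 and 3.88, and for Mpeg1, a pore-forming protein of phagocytes, 1.04, 1.25, 0.957 and 1.01 against 2.25 and 2.03. Their changes were 1.25 and 1.19. In all of these the sgOgfod1 ratios lay above every sgScramble ratio, as the naming rule required.

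**Figure D5:**
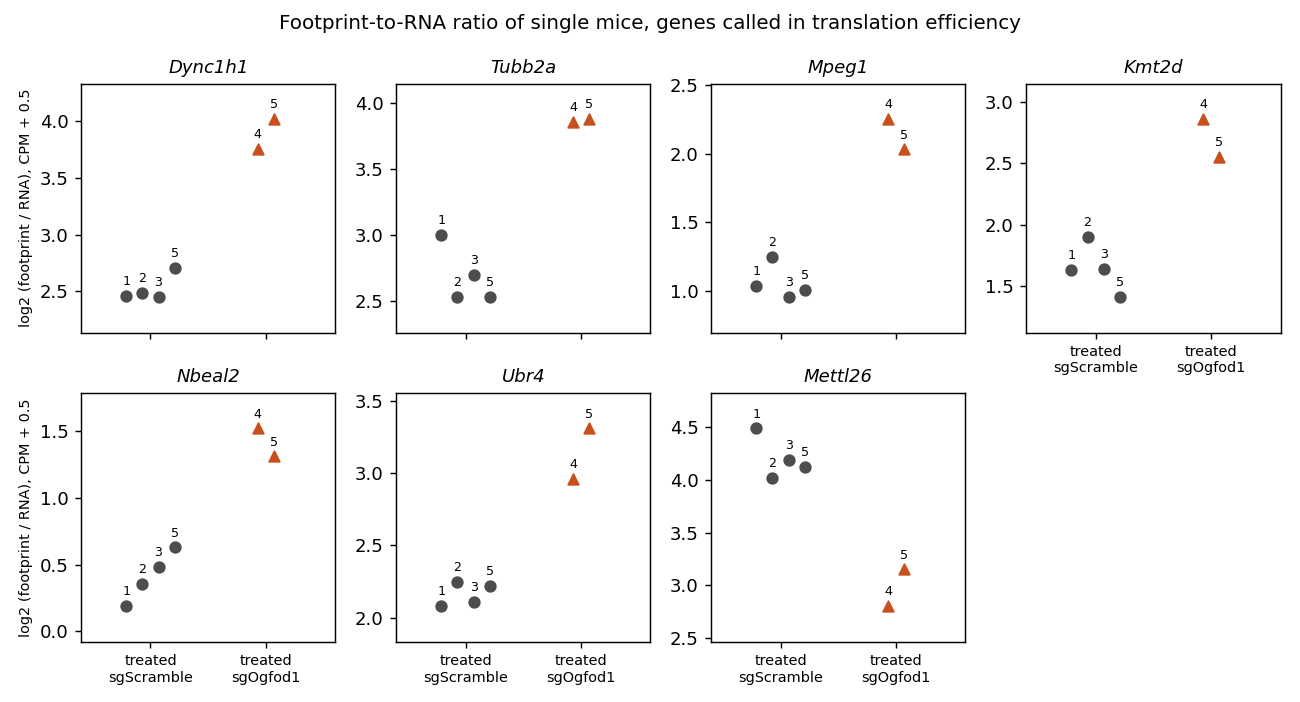
log2 ratio of footprint to RNA CPM, each with 0.5 CPM added, in single treated mice for 7 genes called in translation efficiency. Circles are sgScramble and triangles sgOgfod1 mice, with the replicate number beside each, and the vertical axes differ between panels. The ratio is higher in both sgOgfod1 mice for 6 genes and lower in both for Mettl26.

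The other genes called higher were Kmt2d, a histone methyltransferase (1.09), Nbeal2, needed for granules of blood cells (1.02), and Ubr4, a ubiquitin ligase (0.99). Among the lower were Mettl26 (−1.29) and Hist1h4a, which lies outside the naming rule, was chosen after its values were seen and shares its reads with other H4 genes. Hist1h4a RNA was 0, 0, 0.00892 and 0.0102 CPM in sgScramble and 0.201 and 0.0927 in sgOgfod1, and its ratios in single mice overlapped between the groups, so no fold is given. In the genes called higher, RNA in both sgOgfod1 mice lay below every sgScramble mouse, so a higher ratio need not mean more footprints. Mpeg1 footprints were 31.9 to 52.6 CPM in sgScramble and 20.1 and 17.4 in sgOgfod1. Its RNA was 16.2 to 21.8 against 3.83 and 3.89 CPM. Nbeal2 footprints were 64.3 to 78.5 against 75.7 and 66.1 CPM, and its RNA 41.5 to 64.6 against 26.1 and 26.4. Only for Dync1h1 and Ubr4 were both footprint values above every sgScramble mouse. Dync1h1 RNA was 40.0, 36.6, 40.3 and 28.9 CPM in sgScramble and 17.6 and 17.8 in sgOgfod1, while its footprints, scaled in the same model, were 223, 207, 222 and 192 against 245 and 296. Zfp932 (−1.08, adjusted p = 0.0732), Syngr1 (−2.61, adjusted p = 0.0883), Eif1a (−0.67, adjusted p = 0.121) and mt-Co1 (−1.11, adjusted p = 0.128) did not pass by edgeR. The number called was 92 with protein-coding genes alone and 127 without the filter on low counts. With DESeq2 size factors in edgeR it was 14, and without the mouse as a block it was 3. It was 15 and 34 without treated sgScramble replicate 3 or 5, and 1 and 17 without sgOgfod1 replicate 4 or 5.

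Of the 6 genes called higher in translation efficiency, 4 encode very long proteins, of 4644 codons in Dync1h1, 5588 in Kmt2d, 2750 in Nbeal2 and 5180 in Ubr4, whereas Tubb2a has 445 and Mpeg1 720. Across genes, which are not independent replicates, the Spearman correlation of the log2 difference with codon number was 0.134 for footprints (n = 11481) and −0.189 for RNA (n = 11054). In the fifth of genes with the longest coding sequences, from 838 codons up, the medians were 0.065 in footprints, −0.14 in RNA and 0.23 in their ratio. In the fifth with the shortest, up to 244 codons, they were −0.072, 0.04 and −0.067. The RNA values came from all treated RNA mice, with and without footprints, and the ratio only from mice with both libraries. Of the 78 genes called higher in footprints 41 had 838 codons or more, and the median length of the 78 was 911 codons, against 465 for the genes called lower and 461 for all members. Among treated RNA libraries without footprints, sgScramble replicate 4 and sgOgfod1 replicate 3 were low for some long genes, chosen after their values were seen. Gcn1l1 (2671 codons) gave 6.63 and 7.71 CPM there, against 22.2 to 55.7 in other treated mice. Fasn (2504 codons) gave 15.2 and 13.8 CPM, against 39.1 to 115. Cenpf (2997 codons), at 44.1 and 42.8 CPM, lay within the 38.7 to 107 of the others. The part of coding length in the footprint to RNA ratios, and of these libraries in the RNA values, was not tested.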

How the data were processed

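Ribosome footprints and RNA were sequenced from GFP+ marrow cells, with each library from a separate mouse. The deposited values are raw read counts per gene by featureCounts. Cutadapt, Bowtie2, STAR and SAMtools were used with GRCm38/mm10, per the submitters' processing notes, and versions, strand setting and treatment of multiply mapped reads are not given in the sources used here. Counts of paralogs, pseudogenes and overlapping genes are therefore uncertain. GENCODE release 21 named 55227 genes, and 260 were kept by identifier.

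Counts were fitted with edgeR 4.0.16 (R 4.3.3; limma 3.58.1 was loaded with it), using TMM scaling, its default filter on low counts and the robust quasi-likelihood test. The 4 groups of 12 footprint libraries shared 1 fit with 8 residual degrees of freedom, and the RNA fit had 19. Translation efficiency was the interaction of assay and group in 1 model with the mouse as a block, with pairing of libraries from the labels and 8 residual degrees of freedom. Adjusted p-values are Benjamini-Hochberg over all genes tested, and a gene was called under 0.05. Each SE was derived from the test, as the absolute log2 difference divided by the square root of its F statistic. CPM are on TMM-scaled library sizes. The biological coefficient of variation was 0.156 in footprints and 0.494 in RNA. DESeq2 1.42.0 was an alternative. The procedure was tested on simulated data without effects of library number or mouse, so that test does not bear on such effects.

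Up to 12 genes in each direction were named by the largest fold among called genes with at least 5 CPM in the higher group and both sgOgfod1 libraries outside the sgScramble range, leaving out predicted genes. For the interaction and translation efficiency up to 6 were named in each direction, filled up with the smallest p where fewer than 6 passed. Of each of the 38 lists up to 4 were named by p. The called genes of the mitotic list are all named, beyond that limit and after their values were seen. The members and lists were chosen with earlier results of these data known. Values of a few single genes are not reported here. Alternatives changed the scaling, filter, gene set, tool, block, library number and libraries entered.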

Additional observations from a re-analysis of the deposited data

Results flagged for a closer look

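The genotype effect differed between treatment and vehicle, by the edgeR test of the difference itself, for Ahnak (−3.27, treated minus vehicle, log2), Hmgb1 (−1.26) and Tgm1 (1.20).

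In 11 of 196 genes examined, 1 of the 4 treated sgScramble libraries stood apart from the other three in footprint CPM, and chance flags about 1 in 20 such groups. Replicate 5 stood apart for Car9 (3.66 CPM, others 4.68 to 4.86), Cars (28.9, others 20.6 to 21.9), Mrpl33 (20.8, others 27.5 to 28.8), Tmem71 (9.77, others 13.1 to 13.4), Ulk1 (5.02, others 7.62 to 8.10) and Uqcr10 (28.9, others 38.4 to 40.0). Replicate 3 stood apart for Acox2 (1.03 CPM, others 0.271 to 0.357) and Dld (74.6, others 83.7 to 85.0). Replicate 2 did so for Ldhb (2.98 CPM, others 1.85 to 2.03), and replicate 1 for Aldh1l1 (2.83 CPM, others 2.14 to 2.21) and Rps23 (361, others 330 to 332).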

How the results depend on the processing

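Counts are given in the order of footprint genes higher (78), lower (123), mitotic genes higher (19) and monocyte genes lower (4), then the interaction (3), the vehicle effect (180), RNA higher (48) and lower (25) and translation efficiency (9), where they moved by over 1.5 times. Without a filter on low counts they were 286, 352, 29 and 7, then 160 for the interaction, 588 for vehicle, 15 for RNA lower and 127 for translation efficiency. With protein-coding genes alone, 165 were higher and 92 were called in translation efficiency, and 47.8% of footprint calls were higher against 38.8%. DESeq2 gave 160 higher, 248 lower, 9 monocyte genes, 28 for the interaction, 386 for vehicle, and 264 and 233 in RNA. DESeq2 size factors in edgeR gave 14 in translation efficiency. Whether replicate numbers pair the samples could not be settled from so few pairs. Same-numbered deviations correlated at −0.0276 in the 1 treated footprint pair. They correlated at 0.0376 and 0.083 in the 2 vehicle pairs, both of which correlated best with their own number. Over 6 RNA pairs the values were −0.317 to 0.213, and 1 pair correlated best with its own number. The replicate block gave 3, 66, 1 and 1, then 41, 35, 17 and 8, with 14 of its 69 footprint calls shared, and translation efficiency with no replicate block (the mouse) gave 3. The term for library numbers gave 0, 2, 0 and 0, with 1 for the interaction. The 6 treated libraries alone gave 16 higher, 55 lower and 8 mitotic. Treated libraries from 17 up gave 1, 5, 1 and 0, with 1 for the interaction. RNA in only the 12 mice with footprints gave 253 and 269. Chosen after seeing the data, RNA below number 17 gave 139 and 155, RNA from 17 up 494 and 581, and the treated sgScramble libraries with the lower snRNA shares 18, 44, 10 and 2. The share of higher calls was 4.35% with the block, 22.5% with 6 libraries, 16.7% from 17 up, 29.0% with lower snRNA shares, and 50.6% and 52.0% without sgOgfod1 replicates 4 and 5. Leaving out each library in turn gave 22 to 211 higher, 40 to 234 lower, 3 to 25 mitotic and 0 to 10 monocyte genes, 1 to 65 for the interaction, 34 to 323 for vehicle, 27 to 175 and 14 to 152 in RNA and 1 to 34 in translation efficiency, with both RNA maxima without treated sgScramble replicate 4. The cause was not tested. Ogfod1 was called in each of these leave-one-out fits, at −3.36 to −2.36 (adjusted p 0.000112 to 0.000508, edgeR). Among values of single named genes, 651 kept direction and stayed called or stayed uncalled, 215 lost the call, 34 gained it and 0 reversed. The 651 thus include genes without a call in the full comparison, such as Rps23 with 22 values, and are not all calls that held. With 2 sgOgfod1 mice, differences in genes of low counts may not be detectable.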

Other observations

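The genes here were chosen after their values were seen. Fth1, the heavy chain of the iron store ferritin, gave 381, 558, 483 and 344 CPM in treated sgScramble footprints and 171 and 232 in sgOgfod1, a difference of −1.13 ± 0.19 (adjusted p = 0.0129, edgeR). Ftl1, the light chain, gave 389, 485, 430 and 300 against 192 and 220 CPM, a difference of −0.96 ± 0.15 (adjusted p = 0.00863, edgeR), and −0.81 under vehicle (adjusted p = 0.00746, edgeR). The groups did not overlap for either chain, and ferritin genes have copies that may share their reads. Tfrc, the receptor that brings in iron, gave 51.4, 37.1, 45.5 and 56.4 against 63.5 and 64.9 CPM, a difference of 0.43 that did not pass (adjusted p = 0.154, edgeR), and 0.61 under vehicle (adjusted p = 0.04, edgeR). Adam8, a surface protease of myeloid cells, gave 89.5, 142, 163 and 93.6 against 30.2 and 32.6 CPM, a difference of −1.96 ± 0.28 (adjusted p = 0.0123, edgeR).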
